A study of Mus musculus with 4 samples.

Results

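Paneth cells sit at the base of the crypts of the small intestine and secrete granules of antimicrobial proteins into the crypt lumen. The genes described here are 6 of their granule genes, chosen by name: the alpha-defensins Defa21, Defa22 and Defa24, the lysozyme Lyz1, the matrix metalloproteinase Mmp7 and the ribonuclease Ang4. All 6 were measured, among 22180 genes in all. Each was represented by its probe set with exactly 1 gene symbol and the highest mean over the arrays. They were followed over 4 whole-transcript arrays, 1 per group, of which none was made from sorted Paneth cells.

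The groups were intraepithelial lymphocytes (IEL, immune cells that sit within the epithelium) of the small intestine, colon IEL of mice given antibiotics and then recolonized, colon IEL of unmanipulated mice, and cells labelled as T cells of the colon lamina propria. All mice were C57Bl/6 of 8 to 10 weeks with no named mutation, and the labels speak of pools of 10 mice, 5 male and 5 female. The antibiotics were vancomycin, ampicillin, neomycin and metronidazole, given for 7 days in drinking water with a grape flavouring. The labels give recolonization, which lasted 7 days, once as co-housing with littermates and once as transfer of used bedding. T cells were enriched on magnets by removal of other cells, with an antibody against the epithelial protein EpCAM added to the removal mix. The label of the recolonized array names neither tissue nor cell type, and its identity as colon IEL comes from the design text.

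Alpha-defensins of the mouse, also called cryptdins, are small cationic peptides that permeabilize bacterial membranes. They are stored as precursors, and in mice MMP7 cuts them into their active form. Lysozyme cleaves the peptidoglycan of the bacterial cell wall, and ANG4 is a member of the angiogenin ribonucleases with bactericidal activity. The colon of the mouse has no typical Paneth cells, but Ang4 is also known from goblet cells there. In mice the maturation of Paneth cells depends on Wnt signals, which act through TCF and LEF factors.

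Marker genes were set against the labels first. The 10 measured T cell markers had median log2 levels of 5.72 on the small intestinal array, 6.79 on the recolonized array and 6.17 on the colon IEL array, but 2.48 on the one labelled LP, for lamina propria. That array carried colonic epithelium instead, with median levels of 9.90 for 9 goblet cell markers and 9.83 for 8 colonocyte markers, and because its content went against its label LP it is named the LP-labelled array. Epithelial transcripts were present in small intestinal IEL too, with a median level of 9.22 for 15 enterocyte markers. The colon IEL arrays were not free of other cells either. On the recolonized array the median level was 7.5 for goblet cell, 6.05 for colonocyte and 4.94 for 8 stromal markers. On the colon IEL array these medians were 5.01, 3.19 and 5.4. The median gene level lay between 2.18 and 2.41 on the 4 arrays. Since each group is a single array, differences carry no test and no p-value. In such bulk samples, fewer cells of a type and less RNA per cell cannot be told apart.

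The promoters are shown because the 3 alpha-defensins belong to a family whose members resemble each other, some of them closely. RefSeq promoter windows of the mouse assembly GRCm38.p6 matched 5 of the 6 genes; Defa24 did not match. Printed are the 250 bases before the annotated start, 5′ to 3′ on the gene's strand, with matches to the letters CTTTGA (a core of TCF and LEF binding sites, on either strand, so also read as TCAAAG) and TATAAA (the TATA box, either strand) in capitals. The Defa22 window at chr8:21162027-21162276 (plus strand) was identical to that of Defa21, so it is printed once. The windows lie at chr8:21025295-21025544 (plus strand) for Defa21, chr9:7691840-7692089 (plus strand) for Mmp7, chr10:117292869-117293118 (minus strand) for Lyz1 and chr14:51773591-51773840 (minus strand) for Ang4.
Defa21: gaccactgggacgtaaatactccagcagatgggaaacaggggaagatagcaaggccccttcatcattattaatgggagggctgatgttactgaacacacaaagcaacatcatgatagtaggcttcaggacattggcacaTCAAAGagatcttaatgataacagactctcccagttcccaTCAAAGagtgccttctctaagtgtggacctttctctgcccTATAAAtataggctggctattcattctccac
Mmp7: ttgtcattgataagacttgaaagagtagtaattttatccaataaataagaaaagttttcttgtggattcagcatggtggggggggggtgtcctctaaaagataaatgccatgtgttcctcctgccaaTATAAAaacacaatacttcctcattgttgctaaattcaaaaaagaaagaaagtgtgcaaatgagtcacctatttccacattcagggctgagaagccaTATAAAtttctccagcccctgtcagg
Lyz1: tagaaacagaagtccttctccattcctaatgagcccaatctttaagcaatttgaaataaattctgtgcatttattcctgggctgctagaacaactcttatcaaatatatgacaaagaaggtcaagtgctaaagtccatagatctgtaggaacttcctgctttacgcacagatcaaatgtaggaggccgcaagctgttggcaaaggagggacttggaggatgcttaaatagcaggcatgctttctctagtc
Ang4: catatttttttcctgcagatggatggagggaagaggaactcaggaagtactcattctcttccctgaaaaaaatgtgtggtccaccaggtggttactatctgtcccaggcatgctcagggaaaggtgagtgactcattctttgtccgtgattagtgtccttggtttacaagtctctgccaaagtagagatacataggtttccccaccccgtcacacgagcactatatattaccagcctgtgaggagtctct

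The shared window of Defa21 and Defa22 held CTTTGA on its minus strand at positions -111 to -106 and -71 to -66, counted back from -1 at the base before the start, and TATAAA at positions -31 to -26. Mmp7 held TATAAA at positions -123 to -118 and -26 to -21 and no CTTTGA. The windows of Lyz1 and Ang4 held neither. Another word, CAGCTG, an E-box that reads the same on both strands, was found in none of the 5 windows. Among the 16 alpha-defensin promoters in the table, 13 held CTTTGA and 9 held it more than once, 15 held TATAAA and 1 held CAGCTG. Of all 32851 promoter windows of this length, 13.8% held CTTTGA, 1.4% held it more than once, 12.4% held TATAAA and 13.0% held CAGCTG. The family's windows are not independent of each other. The 15 others were compared with Defa21 without gaps, over the overlap at the best shift of up to 20 bases. Of them, 7 were at least 80% identical, from 90.2% up to the full identity of Defa22. The other 8 were between 31.9% and 64.1% identical. A comparison without gaps can understate likeness where bases were inserted or lost. In the RefSeq gene order the run from Defa21 to Defa24 holds 30 protein-coding genes, 29 of them alpha-defensins. Likeness of the transcripts, which the probes read, was not measured here, but 9 alpha-defensin probe sets list several symbols, so the values of single alpha-defensins are uncertain.

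The 3 alpha-defensins and Lyz1 were far higher on the small intestinal array than on any other. Defa22 was at a log2 level of 11.63 on the small intestinal array, 5.36 on the recolonized array, 2.76 in colon IEL and 4.99 on the LP-labelled array. Defa21 was at 11.13, with 3.76 on the recolonized array, 3.80 in colon IEL and 4.81 on the LP-labelled array. Both were far higher on the small intestinal array than elsewhere, but their order over the other arrays was not the same. Defa22 was not low on the recolonized array, where its level lay at the 94.7th percentile of all genes.

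Defa24 was at a log2 level of 9.98 on the small intestinal array, 2.78 on the recolonized array, 1.94 in colon IEL and 3.11 on the LP-labelled array. Its level on the colon IEL array lay below the array's median of 2.41, so the low end of the array may limit the size of its differences. Lyz1 was at 9.86 on the small intestinal array, 2.51 on the recolonized array, 4.83 in colon IEL and 2.97 on the LP-labelled array. Lyz1 thus had its second-highest level on the array of unmanipulated colon IEL, where Defa22 and Defa24 had their lowest.

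Mmp7, the activating protease, differed by less. Its probe set was at a log2 level of 4.49 on the small intestinal array, 2.46 on the recolonized array, 2.37 in colon IEL and 2.35 on the LP-labelled array. Outside the small intestinal array its values lay close to the array medians. A second Mmp7 probe set was low everywhere, at 1.53 on the small intestinal array, 2.08 on the recolonized array, 1.33 in colon IEL and 1.53 on the LP-labelled array, so the probe sets of this gene disagree.

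Ang4 had a pattern of its own among the 6. It was at a log2 level of 8.23 on the small intestinal array, 9.25 on the recolonized array, 6.83 in colon IEL and 6.42 on the LP-labelled array. It was above the array median by several log2 units everywhere and highest on the recolonized array. As a measure of how the members varied among themselves, each member's 4 levels, minus their own mean, were set against the mean of the other 5. The Euclidean distance was 5.12 for Ang4 and between 2.22 and 3.20 for the other 5.

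**Figure D1:**
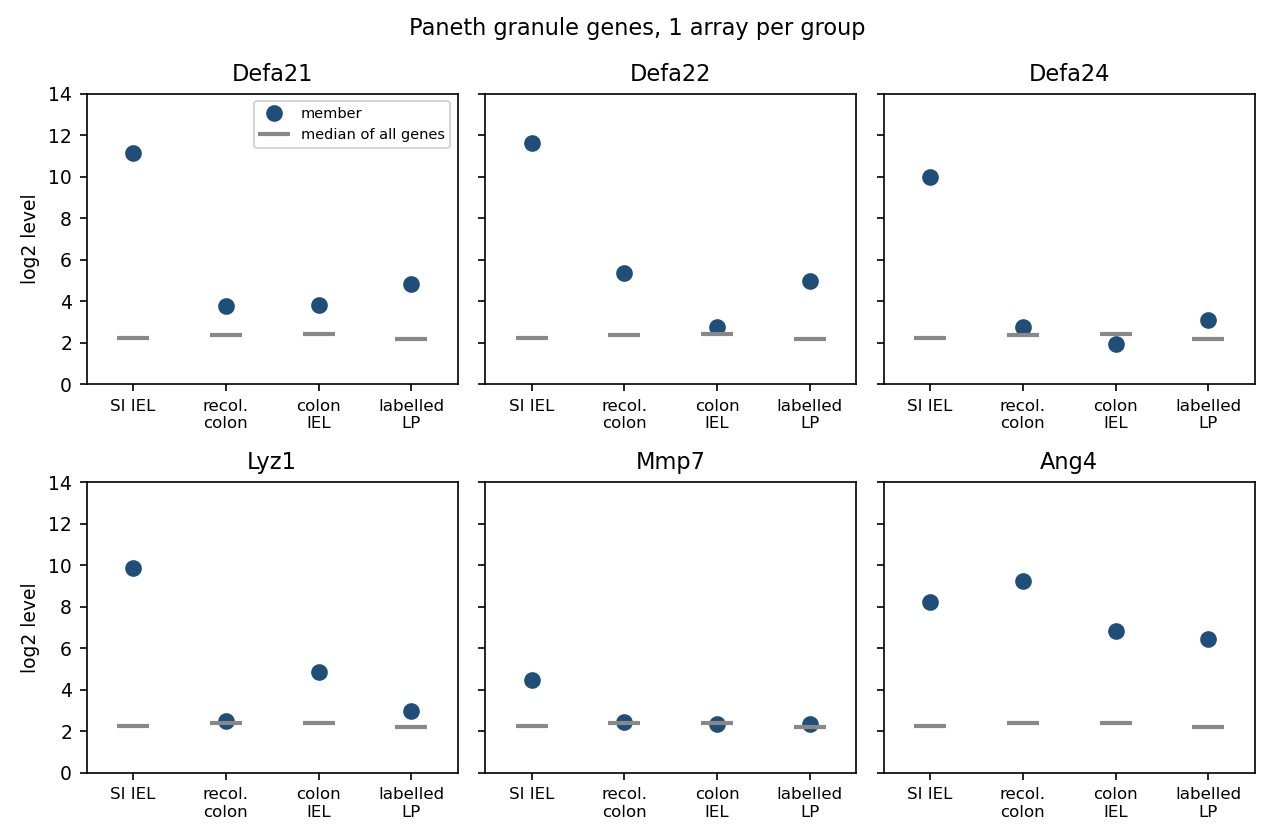
Log2 level of each of the 6 Paneth granule genes (dots) on the small intestinal array, the recolonized colon IEL array, the colon IEL array and the LP-labelled array, 1 array per group, with the median of all 22180 genes on each array (grey bars). Defa21, Defa22, Defa24 and Lyz1 lie between 9.86 and 11.63 on the small intestinal array and at 5.36 or less elsewhere, while Ang4 is highest on the recolonized array at 9.25.

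Small intestinal IEL were compared with colon IEL to ask how the compartments differ along the gut. All 6 members were at least 2-fold higher on the small intestinal array, where 24.4% of 12553 genes above the level floor were, and none was lower, where 5.98% were. A gene passed this floor when the brighter of its 2 levels reached the median of its array, so a member could pass through the small intestinal array alone. The log2 difference was 8.87 for Defa22, 8.04 for Defa24, 7.32 for Defa21, 5.03 for Lyz1, 2.12 for Mmp7 and 1.39 for Ang4. The colon IEL levels of Defa22, Defa24 and Mmp7 lay near or below that array's median of 2.41 and are not known to be above background, so the size and order of these differences are uncertain. The median of the 6 differences was 6.18, beside 0.30 over all genes above the floor. As yardsticks, the SD of the differences was 0.62 over 24 ribosomal protein genes above the floor. For 968 genes with 2 probe sets each, taken without the floor, the gap between the differences of the 2 had an SD of 1.08. The difference of Ang4 was 0.30 under quantile normalization and 0.45 after a lowess correction, both under 2-fold. That of Lyz1 was 3.92 with quantile normalization and 4.08 with lowess, and that of Mmp7 was 1.16 as the mean of both its probe sets.

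Against recolonized colon IEL, 5 members were at least 2-fold higher on the small intestinal array, where 17.9% of 12382 genes were. The log2 differences were 7.37 for Defa21, 7.35 for Lyz1, 7.20 for Defa24, 6.27 for Defa22 and 2.03 for Mmp7. The recolonized levels of Lyz1, Defa24 and Mmp7 lay near that array's median of 2.39 and are not known to be above background. The size and order of these differences are thus uncertain. Ang4 was lower on the small intestinal array by just over the threshold, with a difference of -1.03, a direction in which 4.76% of genes were called. Taking the mean of both Mmp7 probe sets brought its difference to 0.74.

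Against the LP-labelled array, which was rich in colonic epithelium, all 6 were at least 2-fold higher on the small intestinal array. The background share was 8.76% of 12164 genes, with 15.7% lower, and the median of the 6 differences was 6.48 beside -0.17 over all genes above the floor. The differences were 6.89 for Lyz1, 6.87 for Defa24, 6.64 for Defa22, 6.32 for Defa21, 2.14 for Mmp7 and 1.80 for Ang4. The mean of both Mmp7 probe sets differed by 1.07. The 3 comparisons share the small intestinal array.

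Enterocyte markers moved with the granule genes. All 15 were at least 2-fold higher on the small intestinal array in each of these comparisons, with median differences of 6.28 against colon IEL, 6.30 against recolonized colon IEL and 3.65 against the LP-labelled array. Their median level was 9.22 on the small intestinal array, 2.58 on the recolonized array, 2.22 in colon IEL and 4.74 on the LP-labelled array. General epithelial markers moved with the granule genes in the comparisons with the colon IEL arrays but not in the one with the LP-labelled array. Of 12 pan-epithelial markers, 10 were at least 2-fold higher on the small intestinal array than in colon IEL (median 2.04), and 7 were higher than on the recolonized array (median 1.26). Against the LP-labelled array, 10 of the 12 were at least 2-fold lower on the small intestinal array, with a median of -2.08. Of the goblet cell markers, 5 of 8 above the floor were higher on the small intestinal array than in colon IEL, with a median of 1.5 over 9 measured; against the recolonized array 1 was higher and 2 were lower, and against the LP-labelled array 7 of 9 were lower. All 8 colonocyte markers were at least 2-fold lower than on the LP-labelled array, and 4 of 8 were lower than on the recolonized array, while against colon IEL 3 were higher and 2 lower.

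B cell and plasma cell markers were higher on the small intestinal array as well. Of 6 measured, 4 were at least 2-fold higher than in colon IEL, 4 than on the recolonized array and 5 than on the LP-labelled array, with median differences of 1.80, 3.89 and 4.34. Jchain, which encodes the chain that joins antibody units, was at 7.64 on the small intestinal array, 2.02 on the recolonized array, 2.21 in colon IEL and 1.38 on the LP-labelled array. The part of enterocytes, of other epithelial cells and of B cells in the differences of the granule genes was not tested.

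The rest of the alpha-defensin family followed the 3 members. The arrays held 22 probe sets whose symbols all name alpha-defensins or their pseudogenes. Of these, 13 listed 1 symbol and 9 listed several, which name no single gene. Among 7 other single-gene probe sets, those of Defa26, Defa33, Defa34, Defa35, Defa39, Defa40 and Defa41, all 7 were at least 2-fold higher on the small intestinal array than on the colon IEL array, with differences between 3.72 and 6.77 and a median of 4.73. Of the 9 probe sets with several symbols, 8 were, with a median of 5.43, and the remaining one was at 2.21 on the small intestinal array against 1.74 on the colon IEL array. The 3 pseudogene probe sets differed by -0.09 to 0.29. Defa39 was at 8.98 on the small intestinal array, against 1.72 on the recolonized array, 2.20 in colon IEL and 1.26 on the LP-labelled array. Whether each of these genes has its own signal was not tested.

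**Figure D2:**
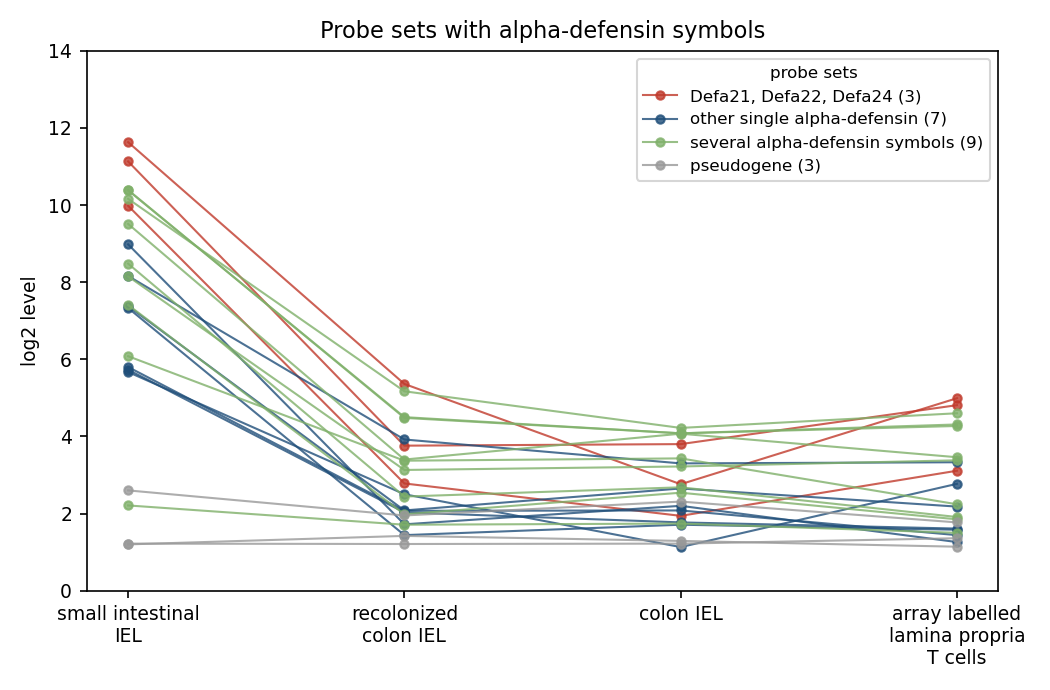
Log2 level of the 22 alpha-defensin probe sets on the 4 arrays, 1 array per group; each line joins the values of 1 probe set and the colours give the 3 members, 7 other single-gene probe sets, 9 probe sets with several symbols and 3 pseudogenes. All but the 3 pseudogenes and 1 probe set with several symbols are between 5.67 and 11.63 on the small intestinal array, and all 22 are at 5.36 or less on the other arrays.

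Other secreted products known from Paneth cells gave a mixed picture. Of 12 measured, 11 passed the floor between small intestinal and colon IEL; 7 were at least 2-fold higher on the small intestinal array and 1 was lower. The median difference over the 12 was 1.85. The intelectin Itln1, a lectin that binds microbial sugars, was at 8.55 on the small intestinal array and 2.11 on the colon IEL array. The pentraxin Mptx2, a Paneth cell product in mice, was at 8.44 on the small intestinal array and 2.01 on the colon IEL array. On the recolonized array Itln1 was at 2.87 and Mptx2 at 1.73, and on the LP-labelled array they were at 2.09 and 1.60. Both were thus far higher on the small intestinal array than on any other, as the alpha-defensins were.

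The bactericidal C-type lectins shared this pattern only in part. Reg3g was at 8.83 on the small intestinal array, 2.72 on the recolonized array and 2.70 on the colon IEL array, but 7.74 on the LP-labelled array. Reg3b was at 10.24 on the small intestinal array and 9.35 on the LP-labelled array. Reg3a was at 5.53 on the small intestinal array, 1.74 on the recolonized array, 2.44 in colon IEL and 2.05 on the LP-labelled array. Of these lectins, Reg3a was thus high on the small intestinal array alone. The lower gene was Mptx1, the related pentraxin, at 1.41 on the small intestinal array, 7.05 on the recolonized array, 4.03 in colon IEL and 5.89 on the LP-labelled array. Pla2g2a, a secreted phospholipase of Paneth cells that is known to be inactivated by mutation in C57BL/6 mice, was between 2.14 and 2.63 on all 4 arrays.

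Genes that regulate or mark Paneth cells did not share the pattern of the granule genes. Of 26 measured, 20 passed the floor between small intestinal and colon IEL; 2 were at least 2-fold higher on the small intestinal array, 1 was lower, and the median difference was 0.06, which turned to -0.02 under quantile normalization and -0.24 after centring. The higher ones were Ctnnb1, which encodes beta-catenin, with a difference of 1.40, and Xbp1, a transcription factor of secretory cells, with 1.07. The lower one was the potassium channel gene Kcnn4 with -1.23. Against the LP-labelled array, 0 of 23 above the floor were higher on the small intestinal array and 9 were lower. The list is not limited to genes of Paneth cells alone, and the part of other cells in these levels was not tested.

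Sox9, a transcription factor that Paneth cells require, was at 2.62 on the small intestinal array, 3.04 on the recolonized array, 2.24 in colon IEL and 6.04 on the LP-labelled array. Atoh1, the transcription factor of all secretory cells of the gut, was at 3.40 on the small intestinal array and 6.59 on the LP-labelled array. Both genes are shared with other crypt or secretory cells. Of 7 crypt stem cell markers, none was at least 2-fold higher on the small intestinal array in any of its 3 comparisons. Lgr5, the stem cell receptor, was at 1.73 there, below the array's median of 2.24. The small intestinal array was the highest of the 4 for 5 of the 6 granule genes, but for 2 of the 26 regulators and surface genes and 1 of the 7 stem cell markers, beside 16.0% of all genes. This trait was not particular to the granule genes. The same array was the highest for all 15 enterocyte markers and for 5 of 6 B cell and plasma cell markers. It was also the highest for 8 of 9 other alpha-defensin genes and pseudogenes and 9 of 12 other Paneth cell products.

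Paralogs of the members were also set beside them. Lyz2, the lysozyme of macrophages and a close copy of Lyz1, was at 6.65 on the small intestinal array, 5.74 on the recolonized array, 6.40 in colon IEL and 2.05 on the LP-labelled array. It differed by 0.24 between small intestinal and colon IEL, where Lyz1 differed by 5.03. Of 19 other matrix metalloproteinases, 10 passed the floor in that comparison; 0 were at least 2-fold higher on the small intestinal array and 2 were lower, Mmp25 with -1.29 and Mmp10 with -1.08. Of 13 genes whose proteins act on or pair with those of the members, 8 passed the floor and 4 were at least 2-fold higher on the small intestinal array, with a median difference of 0.01. They included Rnh1, the inhibitor that binds ribonucleases of the angiogenin kind, at 5.44 on the small intestinal array and 3.81 on the colon IEL array, and the adhesion protein gene Cdh1, at 6.98 and 4.61 on the same arrays. The angiogenin paralogs Ang2 and Ang6 were below the median on every array, between 0.94 and 1.76. Of 15 beta-defensin and cathelicidin genes, antimicrobial peptides of other cells, 3 passed the floor between small intestinal and colon IEL and none differed by 2-fold.

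**Figure D3:**
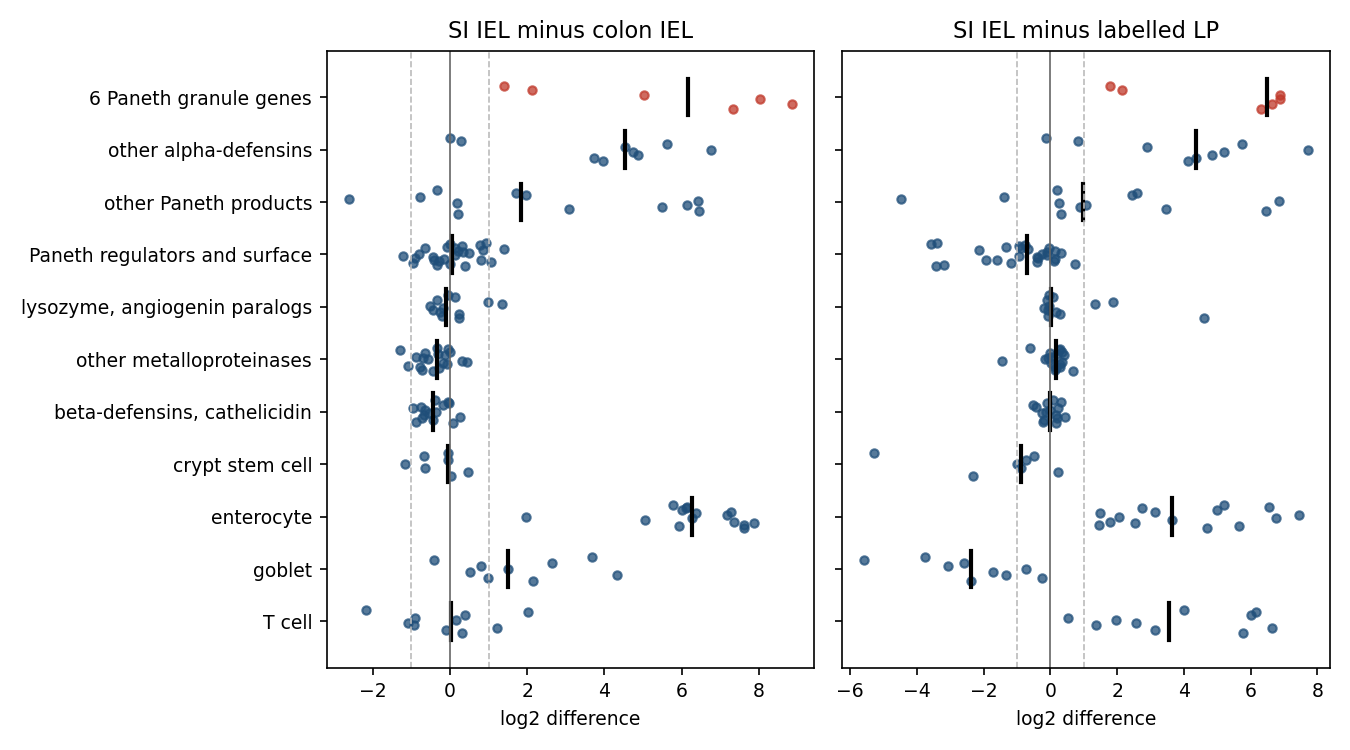
Log2 difference of each measured gene (dots) between small intestinal IEL and colon IEL (left) and between small intestinal IEL and the LP-labelled array (right), by gene list, with list medians as black bars and the 2-fold thresholds as dashed lines. The 6 granule genes have medians of 6.18 and 6.48, while the Paneth cell regulators have 0.06 and -0.71.

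The recolonized array was set against that of unmanipulated colon IEL to ask what antibiotics followed by the return of bacteria leave behind; mice given antibiotics without recolonization were not among the arrays. Of the 6 members, 2 were at least 2-fold higher on the recolonized array, where 6.04% of 12443 genes were, and 1 was lower, where 3.06% were. Defa22 was at 5.36 on the recolonized array and 2.76 on the colon IEL array, a difference of 2.60. Ang4 was at 9.25 on the recolonized array and 6.83 on the colon IEL array, a difference of 2.42. Lyz1 was the lower one, at 2.51 on the recolonized array and 4.83 on the colon IEL array, a difference of -2.32. Defa21, Defa24 and Mmp7 were within 2-fold, with -0.04, 0.84 and 0.09. The SD was 0.59 over ribosomal protein genes, and 0.73 over the gaps between the 2 probe sets of each of 968 genes. The 3 differences past 2-fold stayed so under each scaling tried. The lower levels of Defa22 and Lyz1 lay near the medians of their arrays, 2.41 for colon IEL and 2.39 for the recolonized array. They are not known to be above background, so the size of these differences is uncertain.

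The difference of Defa22 was not seen in most probe sets of its family. Defa21, whose promoter window has the same sequence, differed by -0.04, and the 9 probe sets with several alpha-defensin symbols differed by -0.68 to 0.95, none by 2-fold. Of the 7 other single-gene probe sets, counted without the floor, 1 was at least 2-fold higher on the recolonized array, that of Defa40. It was at 2.50 on the recolonized array and 1.13 on the colon IEL array, where 1.13 is below the array's median. Of 9 other alpha-defensin genes and pseudogenes measured, only 3 passed the floor between these arrays. The rest were too low for the lack of a difference to be informative.

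Lyz1 and Lyz2 both lay lower on the recolonized array, Lyz2 with a difference of -0.67. Of the 12 macrophage and neutrophil markers, which include Lyz2, 6 passed the floor; 1 was at least 2-fold higher on the recolonized array and 0 were lower, with a median of -0.14 over the 12. B cell and plasma cell markers were lower on that array in 3 of 5 above the floor, with a median of -1.07 over 6 measured. The part of these cells in the Lyz1 difference was not tested.

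Goblet cell and colonocyte markers moved with Ang4 between these arrays. Of 9 goblet cell markers, 7 were at least 2-fold higher on the recolonized array and 0 lower, with a median difference of 2.45, and of 8 colonocyte markers 5 were higher, with a median of 2.37. Muc2, the main mucin of goblet cells, was at 9.45 on the recolonized array and 7.00 on the colon IEL array. Between colon IEL and the LP-labelled array they parted. All 9 goblet cell markers and all 8 colonocyte markers lay at least 2-fold lower in colon IEL there, with medians of -4.55 and -6.11, whereas Ang4 was at 6.83 in colon IEL and 6.42 on the LP-labelled array. That difference of 0.41 was 1.88 when the arrays were quantile-normalized and 1.86 with a lowess correction. The part of goblet cells and colonocytes in the Ang4 difference was not tested.

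**Figure D4:**
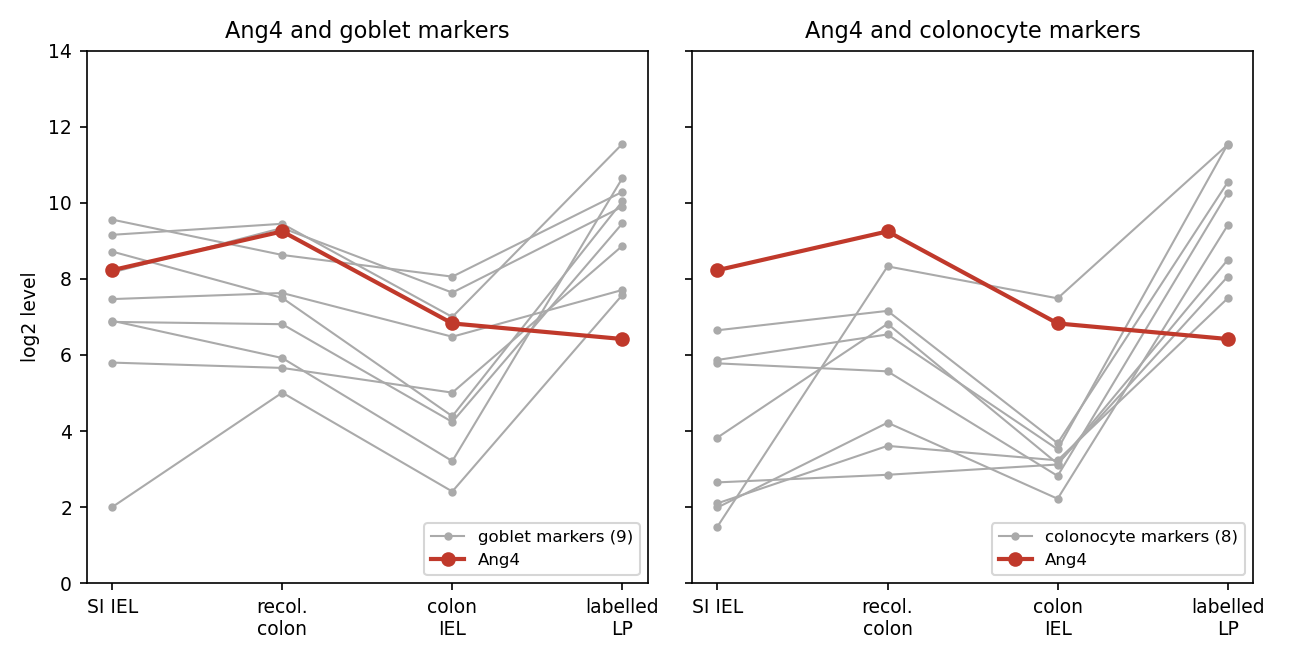
Log2 level of Ang4 (red) beside 9 goblet cell markers (left) and 8 colonocyte markers (right, grey) on the 4 arrays, 1 array per group; each line joins the values of 1 gene. Ang4 and most markers are higher on the recolonized array than on the colon IEL array, but on the LP-labelled array the markers are at their highest and Ang4 is at 6.42, its lowest.

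Between colon IEL and the LP-labelled array, 5 members passed the floor. Lyz1 was at least 2-fold higher on the colon IEL array, with a difference of 1.86, where 10.5% of 12788 genes were. The 3 alpha-defensins were at least 2-fold lower, as were 34.7% of genes, with differences of -2.23 for Defa22, -1.17 for Defa24 and -1.01 for Defa21. Centring on the median left only that of Defa22 past 2-fold, and Defa21 turned to 0.13 under quantile normalization and under the lowess correction. Lyz2 was higher on the colon IEL array by 4.36.

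The genes with the pattern most like the mean of the 6 members were found by Euclidean distance between levels centred on each gene's own mean, over the 4 arrays and among 10337 named genes at or above the median of the small intestinal array. The 10 nearest, at distances of 0.35 to 0.81, were Enpp7, Lct, Sult6b2, Slc7a8, Defa34, Gimd1, Ada, Abcc2, Defa41 and Cyp2b10. They include 2 more alpha-defensins and Lct, the lactase of the enterocyte brush border, which was at 7.75 on the small intestinal array, 2.58 on the recolonized array, 1.83 in colon IEL and 2.10 on the LP-labelled array. The mean joins unlike patterns, since Ang4 lay at a distance of 5.12 from the mean of the other members. For single members the nearest gene was Fabp1 for Defa21 (distance 1.0), Reg1 for Defa22 (1.62) and Defa24 (1.09), Akp3 for Lyz1 (1.26) and Leap2 for Mmp7 (0.12). The nearest genes of the 3 alpha-defensins and Lyz1 thus lay farther off than those of the mean. For Ang4 the nearest gene was Ptpn7 (0.6), sought among genes at or above the median of the recolonized array. Over 4 arrays such likeness describes these arrays only.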

How the data were processed

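RNA of 4 samples was hybridised to whole-transcript mouse arrays, 1 per group. The authors deposited 1 log2 level per probe set and array, for which the submitters' processing notes name Affymetrix Expression Console. The version, the summarization and the scaling are not given in the sources used. Of 41345 probe sets, 23521 listed 1 gene symbol, 1814 several and 16010 were not in the gene table used. Gene IDs of 21994 of 22180 genes matched RefSeq (GRCm38.p6). The probe sets come without a genome build.

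Differences of log2 levels were taken between pairs of arrays in 5 comparisons, and genes at or above the 50th percentile on the brighter array were counted at 2-fold. No test was possible. The steps were tested on simulated data. The simulated arrays shared the same profile and noise level, so this did not test differences of scale or spread between arrays. Values were computed with Python 3.11.15, pandas 2.3.3 and statsmodels 0.14.6. The number of arrays limits the precision. The members and gene lists were chosen with earlier results of these data known. Named are all members and, of each list, up to 6 genes with large differences between small intestinal and colon IEL, plus paralogs and genes that illustrate a contrast, chosen after their values were seen. Alternatives were other floors (25th, 75th percentile, none), thresholds of 1.5-fold and 3-fold, the mean of probe sets, quantile normalization, centring, and lowess with a span of 0.3.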

Additional observations from a re-analysis of the deposited data

How the results depend on the processing

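Of the 25 member differences past 2-fold in the 5 comparisons, 98 of 100 values under the mean of probe sets, quantile normalization, centring and lowess kept their sign, and 93 stayed past 2-fold. Only Mmp7 had a second probe set of its own. For the other members the mean of probe sets could not change a value, so those values were kept by construction. The 2 exceptions in sign were Defa21 between colon IEL and the LP-labelled array, at 0.13 under quantile normalization and 0.13 after lowess. In that comparison the members at least 2-fold higher numbered 2 under quantile normalization and under lowess, in place of 1, and those lower numbered 1 at a 3-fold threshold and 1 after centring, in place of 3. Between small intestinal and colon IEL the median of the 6 differences was 5.24 under quantile normalization and 5.23 after lowess, in place of 6.18. At a 3-fold threshold 0 members were lower in small intestinal than in recolonized colon IEL, in place of 1. The cause of these shifts was not tested, apart from the threshold's own construction. A shift was judged against the SD over ribosomal protein genes, since there are no replicates.

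Among all genes past 2-fold, the higher ones made up 80.3% between small intestinal and colon IEL (50.4% under quantile normalization), 79.0% against recolonized colon IEL (50.8%), 35.8% against the LP-labelled array (49.5%), 66.3% between recolonized and unmanipulated colon IEL (48.8%) and 23.2% between colon IEL and the LP-labelled array (48.9%). Quantile normalization draws these shares together by its construction. No paired analysis was possible because each group is 1 array. No detection calls were used, so levels near an array's median are not known to be above background.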
